A study of Mus musculus with 37 samples.

Results

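The genes described here encode the heat shock proteins and their co-chaperones. A gene was taken in when its mouse symbol began with Dnaja, Dnajb, Dnajc, Hspa, Hspb or Cct followed by a digit, or was Hspd1, Hspe1, Hsph1, Hsp90b1 or Tcp1. Of 16489 genes that the arrays measured with a symbol of their own, 77 met this rule, each through 1 array feature. The rule fits 85 symbols of the reference table. The other 8, 5 of them pseudogenes, were not analysed here, and Hspd1, Dnajb5 and Dnajc25 are the protein-coding ones among them. The arrays were hybridised with amplified RNA from 2 regions of the brains of adult male C57BL/6J mice, the dentate gyrus (DG) of the hippocampus and the nucleus accumbens (NAcc), cut out by laser capture. Forebrain overexpression of the glucocorticoid receptor was limited to early life in one group (6 arrays per region), lasted for the lifetime in another (6 DG and 7 NAcc arrays), and was lacking in controls (6 arrays per region). A total of 18 of the 19 animals gave both regions. The labels name neither the promoter that drives the receptor transgene nor the days over which it was switched on, and give no litter or hybridisation batch.

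Hsp70 proteins bind short hydrophobic stretches of unfolded proteins and release them in a cycle driven by ATP. J proteins, the DNAJA, DNAJB and DNAJC classes, bring clients to Hsp70 and stimulate its ATPase, and the Hsp110 proteins exchange its nucleotide. TRiC, a double ring built from Tcp1 and the Cct subunits, folds actin, tubulin and other proteins in a closed chamber, and the small heat shock proteins hold unfolding proteins without ATP. The glucocorticoid receptor itself is loaded onto Hsp90 by Hsp70 and a J protein before it can bind hormone. The transcription factor HSF1 induces many of these genes after protein damage through inverted repeats of GAA, the heat shock element, and stress in the endoplasmic reticulum (ER) induces others through the ER stress element.

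The sequences below are shown because they separate the members by the stress that is known to induce them. They are the 120 bases just before the annotated start in RefSeq (GRCm38.p6), 5′ to 3′ on the strand of the gene. Capitals mark matches to a heat shock element, of 2 units (GAANNTTC or TTCNNGAA) or 3 units (GAANNTTCNNGAA or TTCNNGAANNTTC), or to the ER stress element (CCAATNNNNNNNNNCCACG, on either strand). Hspa1a (chr17:34972157-34972276, minus strand) and Hspa1b (chr17:34959239-34959358, minus strand) are the stress-inducible cytosolic Hsp70 genes, and Hspe1 (chr1:55088028-55088147, plus strand) encodes the mitochondrial co-chaperonin. Hspb1 (chr5:135887799-135887918, plus strand) encodes the small heat shock protein Hsp27. Hspa5 (chr2:34771970-34772089, plus strand) and Hsp90b1 (chr10:86705445-86705564, minus strand) encode the ER chaperones BiP and Grp94. Hspa2 (chr12:76404250-76404369, plus strand), an Hsp70 gene known for its role in spermatogenesis, has no match in this stretch and is shown because its level differed between the DG groups.
Hspa1a: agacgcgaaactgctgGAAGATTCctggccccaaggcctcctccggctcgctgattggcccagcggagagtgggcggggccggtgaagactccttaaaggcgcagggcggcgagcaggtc
Hspa1b: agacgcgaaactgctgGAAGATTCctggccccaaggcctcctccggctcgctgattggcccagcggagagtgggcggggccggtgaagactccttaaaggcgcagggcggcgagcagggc
Hspe1: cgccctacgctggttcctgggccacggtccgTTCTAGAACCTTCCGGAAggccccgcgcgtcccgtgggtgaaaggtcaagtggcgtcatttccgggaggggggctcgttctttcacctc
Hspb1: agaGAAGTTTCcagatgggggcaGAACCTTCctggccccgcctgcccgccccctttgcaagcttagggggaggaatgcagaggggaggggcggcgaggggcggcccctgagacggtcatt
Hspa5: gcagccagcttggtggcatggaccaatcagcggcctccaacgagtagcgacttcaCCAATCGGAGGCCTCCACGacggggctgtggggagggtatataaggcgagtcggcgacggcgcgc
Hsp90b1: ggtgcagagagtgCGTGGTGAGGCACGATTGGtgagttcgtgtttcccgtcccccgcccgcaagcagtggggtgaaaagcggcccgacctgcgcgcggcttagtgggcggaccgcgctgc
Hspa2: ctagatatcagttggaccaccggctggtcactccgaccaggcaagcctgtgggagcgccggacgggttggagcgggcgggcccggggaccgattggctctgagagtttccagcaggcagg

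Promoter windows running from 250 bases before to 50 bases after a start were available for 64 of the 77 members. The 3-unit element was found in windows of Hspe1, Hsph1 and Dnajb6, and in 0.603% of all 32851 windows. The 2-unit element, which every 3-unit element contains, was found for 19 of the 64 genes, in 26.2% of their 80 windows and in 15.1% of all windows. The ER stress element was found for Hspa5, Hsp90b1 and Dnajc3, an ER J protein, and in 0.119% of all windows. A match describes these letters and does not show that a factor binds there. The Hspa1a and Hspa1b stretches above differ at 1 base, and the 250 bases before the 2 starts differ at 3. These bases lie before the transcript. Transcript and probe sequences were not compared, so whether the array feature of one gene also reads the other is not known.

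Values are given on the log2 scale of the deposited table, where 1 unit is a doubling of signal. A feature was tested in a region when its mean there exceeded the 40th percentile (6.34 for DG, 5.77 for NAcc). This kept 61 members in DG, 59 in NAcc, 57 in both and 63 in either. The 14 members tested in neither region were mainly J proteins (9), with 2 TRiC subunits, 2 small heat shock proteins and 1 Hsp70 gene. A change was called at an adjusted p under 0.05 in limma over all 11301 features of the region, and "rose" and "fell" below refer to that. Signals of different genes come from different probes and are not compared with each other. In such tissue, fewer cells of a type and less RNA per cell cannot be told apart.

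The arrays set limits on what the members can show. In DG the interquartile range within an array averaged 2.71 ± 0.04 in control, 2.85 ± 0.09 in early and 2.87 ± 0.10 in lifetime animals (SD, n = 6 each). By two-sided exact permutation the early group differed from control with p = 0.00649 (0.0195 adjusted over 6 contrasts) and the lifetime group with p = 0.00216 (0.013 adjusted). The NAcc array of early animal 5 read unlike the rest. Of the 77 members, 39 (50.6%) lay below and 23 (29.9%) above the range of the other 18 arrays, against 24.0% and 52.7% of all 18835 features. Its interquartile range was 1.72, against 2.2 to 2.54 in the other NAcc arrays. Its mean correlation with the arrays of its region was 0.773, against 0.973 to 0.98 for the others. NAcc differences between groups that it moves are given with and without it, as are the regional differences it moved most. Of 9 measured markers of medium spiny neurons, 7 lay above the filter in DG and 2 (Drd1 and Foxp2) under it. Of 9 granule cell markers, 6 lay above it in NAcc and 3 (Dsp, Lct and Neurod1) under it. Among 9 granule cell markers in DG, 2 rose in each overexpressing group, and their summed log2 level was 13.39 to 14.19 in controls, 13.76 to 14.17 in the early and 13.49 to 13.93 in the lifetime group. Of the 8 microglial markers, 5 were tested, of which 1 fell in the early and 2 in the lifetime group, and 3 (Cx3cr1, Aif1 and P2ry12) were under the filter. In the lifetime group 1 of 4 tested pyramidal and mossy cell markers fell and 1 of 7 interneuron markers rose in DG, with none in the early group. The summed log2 level of the microglial markers in DG was 10.71 to 10.91 in controls, 10.24 to 10.98 in the early and 10.3 to 10.7 in the lifetime group. What part these array and cell type measures have in the members' results was not tested. Fits with the interquartile range are given below, but this range moved with the group. It spanned 2.64 to 2.75 in control, 2.72 to 2.95 in early and 2.79 to 3.04 in lifetime DG arrays. Such fits therefore cannot tell array spread and overexpression apart.

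Early-life overexpression went with a higher signal of 5 members and a lower signal of 2 in DG. Hspa2, the TRiC subunit gene Cct8, the J protein genes Dnajc7 and Dnajc1 and the co-chaperonin gene Hspe1 rose. The small heat shock gene Hspb6 and the J protein gene Dnajb1 fell. These 7 are 11.5% of the 61 members tested, and 11.4% of all features passed in this comparison, so the share of members was that of the background. By direction, 6.17% of all features were called higher and 5.26% lower. The median change of the members was +0.003, against −0.008 over all features, and 31 of the 61 lay above 0.

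After lifetime overexpression 8 of the 61 members (13.1%) differed from control in DG, where 15.3% of all features passed, 8.88% higher and 6.45% lower. Dnajc19, Hspa2, Dnajc7, Hsph1, Dnajb14 and Hspe1 rose, and Dnajb4 and Hspa12a fell. The members' median was +0.047, against +0.002 over all features. Hspa2, Dnajc7 and Hspe1 passed in both comparisons, which share the control arrays. No member passed between the lifetime and early groups in limma, where 1.37% of all features did and 8 members had an unadjusted p under 0.05. The smallest p values there were those of Dnajb4 (−0.19, SE 0.07, adjusted p = 0.25), Hspa1a (+0.41, SE 0.15, adjusted p = 0.283) and Dnaja4 (−0.19, SE 0.07, adjusted p = 0.285).

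Both counts depended on the model and on single arrays. With the interquartile range within an array added to the fit as a covariate, no member passed in either comparison. Of all features, 1 passed in the early and 74 in the lifetime comparison. As the range moved with the group, this fit cannot tell array spread and overexpression apart. The size of the change moved by over 1.5 times for Cct8 (+0.34), Hspb6 (−0.18), Dnajb1 (−0.15) and Dnajc7 (+0.30) in the early comparison and for Dnajc19 (+0.40), Hsph1 (+0.25) and Dnajc7 (+0.37) in the lifetime one. It did not fall for Hspe1 (+0.29 early and +0.25 lifetime), Dnajb4 (−0.32) or Hspa12a (−0.23). In a fit of both regions with the animal as a random block, 3 members passed in the early comparison (Hspa2, Dnajc1 and Dnajb1) and 2 in the lifetime comparison (Hspa2 and Hspa12a). That fit takes 1 variance per feature from the arrays of both regions, NAcc early array 5 included. The part of this array in the lost DG calls was not tested. With array weights the counts were 11 and 15, and with only the compared groups in the fit 4 and 5. The early count was 0 without early array 3, 4 or 5, 2 without control array 14, 3 without control array 17 and 4 without control array 15. The lifetime count was 3 without lifetime array 9, 4 without lifetime array 7 or 8 or control array 16 or 19, 5 without lifetime array 12 or control array 14, and 15 without lifetime array 10.

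**Figure D1:**
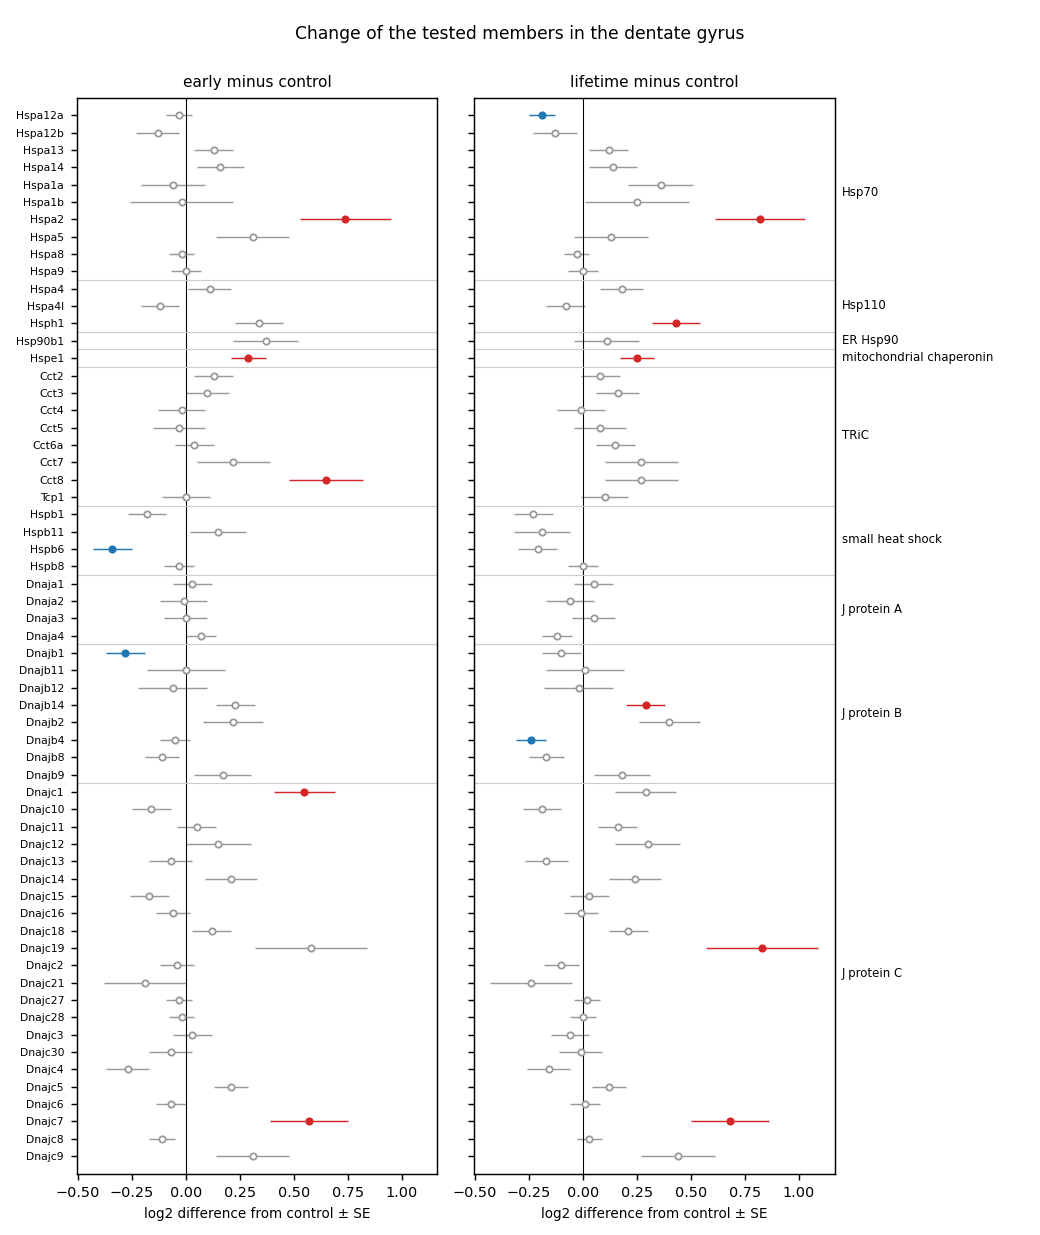
The log2 difference from control in DG (x axis, point and SE) for the 61 tested members grouped by family, for the early group on the left and the lifetime group on the right. Filled red points rose and filled blue points fell at an adjusted p under 0.05, 5 and 2 in the early and 6 and 2 in the lifetime comparison.

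Among the Hsp70 genes, 1 of 10 tested rose in the early comparison, and 1 rose and 1 fell in the lifetime comparison. Hspa2 ran from 8.2 to 9.28 (median 8.47) in control DG, from 8.68 to 9.77 (median 9.37) in the early group and from 8.45 to 9.72 (median 9.52) in the lifetime group. Control array 18 lay high and lifetime array 10 low, so the groups overlapped. Hspa2 rose by 0.74 in the early comparison (SE 0.21, adjusted p = 0.0325), with 6 of 6 arrays over the mean of the controls. It rose by 0.82 in the lifetime comparison (SE 0.21, adjusted p = 0.0156), with 5 of 6 arrays over that mean. The lifetime call was kept without each of the 18 DG arrays in turn, and the early call in 12 of these 18 fits. With the interquartile range as a covariate the differences were +0.50 and +0.55, with adjusted p = 0.547 and 0.468.

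Hspa12a, a distant Hsp70 relative, fell by 0.19 in the lifetime group (SE 0.06, adjusted p = 0.0402, below in 6 of 6 arrays). Its values were 7.45 to 7.69 in controls and 7.35 to 7.49 in the lifetime group, and only control array 14 lay within the lifetime range.

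The stress-inducible pair did not pass in DG. Hspa1a ran from 8.7 to 9.47 (median 9.02) in controls, from 8.63 to 9.55 (median 9.01) in the early group and from 9.15 to 9.79 (median 9.41) in the lifetime group. Its lifetime difference was +0.36 (SE 0.15, adjusted p = 0.107), with 6 of 6 arrays over the mean of the controls, and its early difference was −0.06 (SE 0.15, adjusted p = 0.824). Hspa1b differed by +0.25 (SE 0.24, adjusted p = 0.48) in the lifetime and −0.02 (SE 0.24, adjusted p = 0.957) in the early group.

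None of the housekeeping Hsp70 genes passed. Hspa8, the constitutive cytosolic Hsc70, averaged 15.11 ± 0.10, 15.09 ± 0.06 and 15.08 ± 0.10 (SD, n = 6 each) in control, early and lifetime DG. Its own highest value, 15.21 in lifetime array 8, was level with the top of the table, 15.2. Whether the signal saturates there was not tested. Hspa9, the mitochondrial Hsp70, averaged 9.24 in all 3 DG groups, with SDs of 0.09 to 0.12. Hspa5, the ER Hsp70, averaged 10.31 ± 0.33, 10.62 ± 0.26 and 10.45 ± 0.34 (n = 6 each) in the same order. Its within-group SD in DG was 0.31, against a median of 0.17 over all features, and its differences, +0.31 (SE 0.17, adjusted p = 0.209) and +0.13 (SE 0.17, adjusted p = 0.604), did not pass.

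Of the 3 Hsp110 genes, Hsph1 was the one that passed. Hsph1, which encodes Hsp105, ran from 9.77 to 10.17 (median 10.02) in controls, from 9.99 to 10.78 (median 10.33) in the early group and from 10.1 to 10.64 (median 10.45) in the lifetime group. The lifetime range began just below the top of the control range. The difference was +0.43 (SE 0.11, adjusted p = 0.0196, 6 of 6 arrays) after lifetime overexpression, and +0.34 (SE 0.11, adjusted p = 0.0592, 5 of 6) after early overexpression. Without lifetime array 11 the lifetime adjusted p was 0.05. Hspa4 (+0.11 and +0.18, SE 0.10) and Hspa4l (−0.12 and −0.08, SE 0.09) did not pass in the early or lifetime comparison, with adjusted p of 0.203 to 0.536.

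The organelle chaperones outside the Hsp70 family were Hspe1 and Hsp90b1. Hspe1 ran from 7.78 to 8.13 (median 7.94) in controls, from 8.12 to 8.39 (median 8.21) in the early group and from 7.97 to 8.36 (median 8.26) in the lifetime group. The early arrays met the controls at their highest value alone. Hspe1 rose by 0.29 (SE 0.08, adjusted p = 0.0288, 6 of 6 arrays) and by 0.25 (SE 0.08, adjusted p = 0.0419, 6 of 6). Hsp90b1 averaged 11.11 ± 0.25 (n = 6) in controls and differed by +0.37 (SE 0.15, adjusted p = 0.0949) and +0.11 (SE 0.15, adjusted p = 0.611).

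**Figure D2:**
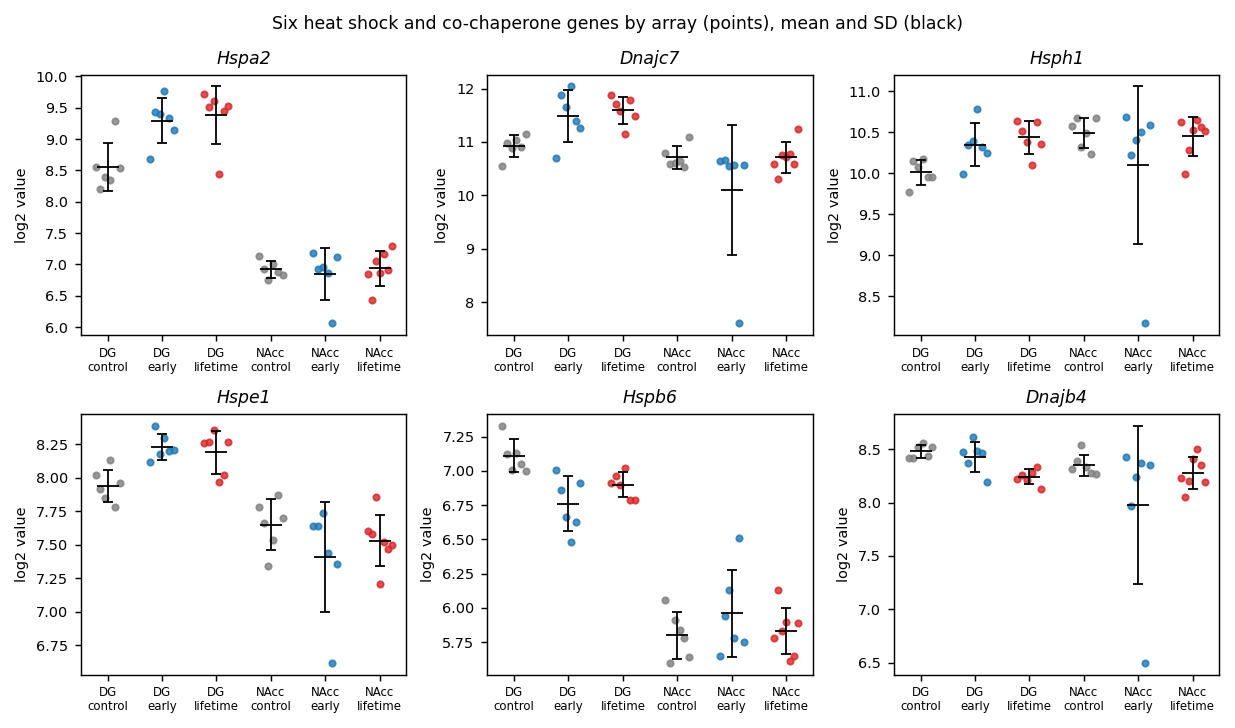
Log2 values (y axis) of Hspa2, Dnajc7, Hsph1, Hspe1, Hspb6 and Dnajb4 in each of the 37 arrays, by region and group (x axis), with points for arrays and black bars for the mean and SD. The Hspa2 points of DG lie above those of NAcc, and NAcc early array 5 lies far below its group for Dnajc7 (7.6) and Hsph1 (8.17).

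Cct8 was the TRiC gene of 8 tested that rose. It ran from 8.25 to 8.88 (median 8.66) in controls, from 8.69 to 9.89 (median 9.13) in the early group and from 8.65 to 9.11 (median 8.95) in the lifetime group. All early arrays lay above the control mean, and the ranges overlapped. The early difference was +0.65 (SE 0.17, adjusted p = 0.028, 6 of 6 arrays), and the lifetime difference was +0.27 (SE 0.17, adjusted p = 0.284). Tcp1 averaged 11.05 ± 0.20, 11.05 ± 0.25 and 11.15 ± 0.12 (n = 6 each) in control, early and lifetime DG. The median of the 8 subunit genes was +0.068 in the early and +0.125 in the lifetime comparison.

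Of 4 small heat shock genes tested in DG, Hspb6 fell in the early group and none passed in the lifetime group. Hspb6, which encodes Hsp20, ran from 7.0 to 7.33 (median 7.08) in controls, from 6.48 to 7.01 (median 6.76) in the early group and from 6.79 to 7.02 (median 6.91) in the lifetime group. Both overexpressing groups reached just into the bottom of the control range. The differences were −0.34 (SE 0.09, adjusted p = 0.0231, below in 6 of 6 arrays) and −0.21 (SE 0.09, adjusted p = 0.0999, 6 of 6). Hspb1 averaged 7.03 ± 0.17 (n = 6) in controls and differed by −0.18 (SE 0.09, adjusted p = 0.186) and −0.23 (SE 0.09, adjusted p = 0.0964). Of glial and vascular markers other than microglial ones, none of 8 tested astrocyte and 6 tested endothelial and pericyte markers passed in DG, and of 8 oligodendrocyte markers 1 fell, in the lifetime group.

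Among the J proteins, 3 of 34 tested passed in the early and 4 in the lifetime comparison, or 8.82% and 11.8%, under the backgrounds of 11.4% and 15.3%. Dnajc7, which binds both Hsp70 and Hsp90 through its TPR repeats, ran from 10.54 to 11.14 (median 10.95) in controls, from 10.69 to 12.04 (median 11.53) in the early group and from 11.15 to 11.87 (median 11.64) in the lifetime group. The lifetime arrays all lay above the controls. The rise was +0.68 (SE 0.18, adjusted p = 0.0173) in the lifetime group, kept without each of the 18 arrays in turn, and +0.57 (SE 0.18, adjusted p = 0.0432, 5 of 6 arrays) in the early group, where the call was kept in 7 of the 18 fits. With the interquartile range as a covariate the differences were +0.37 and +0.30. In the fit of both regions with the animal as a random block its adjusted p was 0.172 and 0.275. The variance in that fit includes NAcc, where its within-group SD was 0.72, or 0.22 without early array 5, against 0.34 in DG.

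Dnajc1, an ER membrane J protein, ran from 7.97 to 8.6 (median 8.27) in controls, from 8.51 to 9.01 (median 8.84) in the early group and from 7.85 to 8.87 (median 8.65) in the lifetime group. Lifetime array 10 was the lowest of all. The early rise was +0.55 (SE 0.14, adjusted p = 0.0248, 6 of 6 arrays), and the lifetime difference was +0.29 (SE 0.14, adjusted p = 0.166). Dnajc19, a J protein of the mitochondrial inner membrane, rose by 0.83 after lifetime overexpression (SE 0.26, adjusted p = 0.0392, 6 of 6 arrays), with an early difference of +0.58 (SE 0.26, adjusted p = 0.138). Its within-group SD in DG, 0.51, was the highest of the members tested there.

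Within the DNAJB class, Dnajb1, the Hsp40 partner of cytosolic Hsp70, fell by 0.28 in the early group (SE 0.09, adjusted p = 0.0432, 6 of 6 arrays). It averaged 9.36 ± 0.15 (SD, n = 6) in controls, 9.08 ± 0.20 (n = 6) in the early and 9.26 ± 0.05 (n = 6) in the lifetime group. Dnajb4, a close relative of it, ran from 8.42 to 8.56 in controls and from 8.13 to 8.33 in the lifetime group, so the groups did not overlap. It fell by 0.24 (SE 0.07, adjusted p = 0.0229), and its adjusted p was 0.0531 without lifetime array 9. Dnajb14, another ER membrane J protein, rose by 0.29 in the lifetime group (SE 0.09, adjusted p = 0.0382, 6 of 6 arrays).

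Of the other J proteins given by level, none passed in DG. Dnaja1, a cytosolic J protein, averaged 11.59 ± 0.17, 11.63 ± 0.18 and 11.64 ± 0.09 (n = 6 each) in control, early and lifetime DG. Dnajc6, the neuronal auxilin that uncoats clathrin vesicles, averaged 8.85 ± 0.07, 8.78 ± 0.12 and 8.86 ± 0.10 (n = 6 each). Dnajc5, the cysteine string protein of synaptic vesicles, differed by +0.21 (SE 0.08, adjusted p = 0.1, 6 of 6 arrays) in the early and by +0.12 (SE 0.08, adjusted p = 0.311) in the lifetime group.

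Lists by function cross the families and hold related genes too. Of 19 tested genes on a list of HSF1-inducible genes, 3 rose and 1 fell in the early comparison, and 3 rose and 2 fell in the lifetime comparison, with medians of −0.022 and +0.048. These are 21.1% and 26.3% of the list, over backgrounds of 11.4% and 15.3%, and the list was chosen with earlier results of these data known. Of 18 genes on a list of ER chaperones, 1 (5.56%) rose in the early comparison and none passed in the lifetime one. Of 15 mitochondrial chaperone genes, 1 (6.67%) rose in the early and 2 (13.3%) in the lifetime comparison. These shares lie under the same backgrounds.

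A total of 50 related chaperone genes outside the rule were tested in DG. In the early comparison 4 rose. Hsp90ab1 (+0.88, SE 0.24, adjusted p = 0.028) and Hsp90aa1 (+0.48, SE 0.11, adjusted p = 0.0146) encode the cytosolic Hsp90 proteins that hold the glucocorticoid receptor. The others were Pdcl (+0.46, SE 0.10, adjusted p = 0.0157), whose product is phosducin-like protein, a TRiC partner, and Bag4 (+0.33, SE 0.09, adjusted p = 0.0248), an Hsp70 nucleotide exchange factor. In the lifetime comparison 5 rose and 1 fell. Pdcl (+0.53, SE 0.10, adjusted p = 0.00339), the auxilin-like J protein gene Gak (+0.94, SE 0.24, adjusted p = 0.0166) and Pdcl3 (+0.30, SE 0.08, adjusted p = 0.0223) rose, as did Hsp90aa1 (+0.35, SE 0.11, adjusted p = 0.034) and the prefoldin gene Pfdn4 (+0.46, SE 0.14, adjusted p = 0.0362). Hsp90ab1 differed by +0.68 (SE 0.24, adjusted p = 0.0566). The small heat shock gene Cryab, prominent in glia, fell by 0.84 (SE 0.23, adjusted p = 0.0225). The share called was 8.0% in the early and 12.0% in the lifetime comparison, against the backgrounds of 11.4% and 15.3%.

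In NAcc no member passed in limma in any of the 3 comparisons. Of 59 tested, 0, 0 and 2 had an unadjusted p under 0.05 for early against control, lifetime against control and lifetime against early. Of all 11301 features 0%, 0% and 0.00885% passed. The smallest p values for early against control were those of Dnajc16 (−0.16, SE 0.08), Dnajc8 (−0.18, SE 0.11) and Dnajb4 (−0.38, SE 0.23), each with an adjusted p of 0.784. Without early array 5 these differences were −0.14, −0.05 and −0.08, with adjusted p of 0.694 to 0.853. For lifetime against control they were those of Hspa13 (+0.12, SE 0.06), Dnajc21 (+0.29, SE 0.15) and Dnajb11 (−0.25, SE 0.16), each with an adjusted p of 1.0. For lifetime against early they were those of Dnajc16 (+0.18, SE 0.08), Dnajb14 (+0.40, SE 0.18) and Hspa1b (−0.59, SE 0.29), each with an adjusted p of 0.572. Without early array 5 they were +0.17, +0.17 and −0.76, with adjusted p of 1.0, 1.0 and 0.835. No related chaperone gene of 48 tested passed in these comparisons either.

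Array 5 of the NAcc early group set the average of several families. For Cct2, chosen after its values were seen, it read 7.22 where the other 18 NAcc arrays read 10.96 to 11.43. All 8 tested TRiC genes lay below the range of the other arrays there. Their median difference of early from control was −0.435 with this array and +0.046 without it. Over the 59 members the median was −0.102 with it and +0.035 without it, and over all features +0.012 and +0.006. Hspb1 went the other way, at 9.4 against 7.59 to 8.46 in the other arrays. Over all 18835 features, 24.0% lay below and 52.7% above the range of the other arrays.

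**Figure D3:**
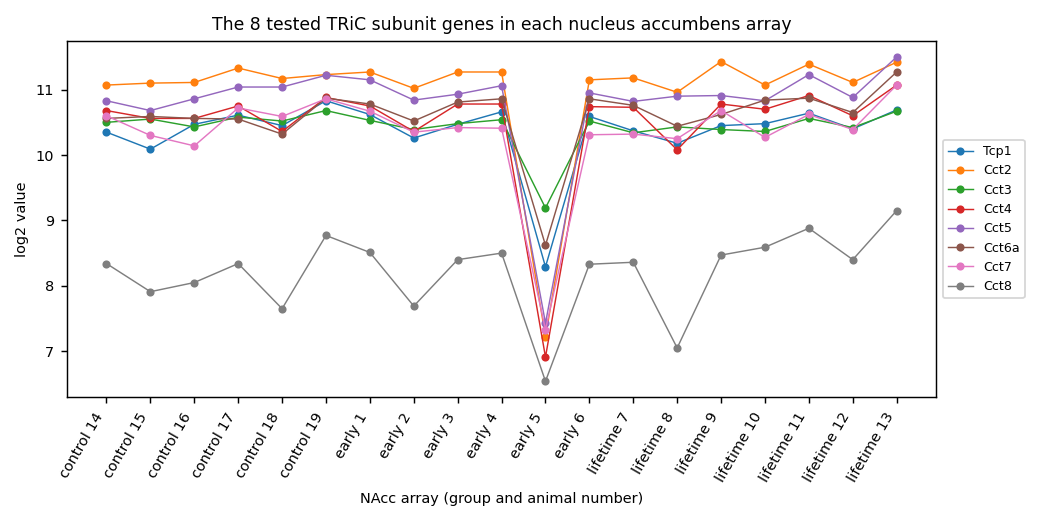
Log2 values (y axis) of the 8 tested TRiC subunit genes in the 19 NAcc arrays (x axis, group and animal number), with a coloured line per gene that joins unordered arrays only to guide the eye. All 8 genes drop in early array 5, Cct2 to 7.22, and lie in a narrow band in most other arrays.

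More members were called between the regions than between the groups. DG and NAcc were compared within the 18 animals after each array had been set to its own median, since the deposited values were 0.697 higher in DG for the median feature. Of the 57 members above the filter in both regions, 21 were higher and 16 lower in DG, or 64.9%, against 71.1% of all 10334 such features. Without animal 5 the count was 44 of 57, or 77.2%, against 79.2%. Over the 63 members above the filter in either region 42 passed, against a background of 74.8% (39.4% higher and 35.5% lower). That count includes 6 members that entered through 1 region alone, Hspa1a, Hspa12b, Dnajb12 and Dnajb8 through DG and Hspb2 and Hspb3 through NAcc, and the choice favours a difference for these.

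The largest excesses in DG over NAcc were those of 3 Hsp70 genes. Of the 10 Hsp70 genes tested, 6 were called higher and 2 lower in DG, or 80.0%, against 74.8% of all features. The 10 include Hspa1a and Hspa12b, which entered through DG alone. Hspa1a, the inducible gene that entered through DG alone, ran from 8.63 to 9.79 over the DG arrays of the 3 groups and from 5.23 to 6.27 over the NAcc arrays, as deposited. Relative to the array medians it was 2.77 higher in DG (SE 0.11). Its NAcc signal lay under the filter, so this size is a description and carries no test here. Among members above the filter in both regions, Hspa1b was 1.70 higher (SE 0.15, adjusted p = 1.65e-09) and Hspa2 1.53 higher (SE 0.16, adjusted p = 1.8e-08). Each of the 3 was higher in DG in 18 of 18 animals.

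Next came Dnajc21 (+1.10, SE 0.10), a J protein of ribosome assembly. It was followed by Cct5 (+0.84, SE 0.21), Hspb11 (+0.83, SE 0.16), also known as an intraflagellar transport protein, and Dnajc1 (+0.77, SE 0.13). Dnajb12, an ER membrane J protein that entered through DG alone, was 1.14 higher in DG (SE 0.06), as a description. Of the housekeeping Hsp70 genes, Hspa9 was higher in DG (+0.37, SE 0.08, adjusted p = 0.000197). The neuronal auxilin gene Dnajc6 was higher as well (+0.58, SE 0.04, adjusted p = 1.03e-10).

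Hspb1 was the member with the greatest excess in NAcc. DG arrays read 6.52 to 7.28 and NAcc arrays 7.59 to 9.4, without overlap even on the deposited scale. Relative to the array medians DG was lower by 1.72 (SE 0.08, adjusted p = 9.5e-14, 18 of 18 animals). It was followed by Hsph1 (−0.74, SE 0.17), Dnajb2 (−0.68, SE 0.14), a neuronal J protein, and Dnajc28 (−0.68, SE 0.04). Dnajc12 (−0.62, SE 0.08), Dnajb9 (−0.58, SE 0.24) and Dnaja3 (−0.50, SE 0.05) came after them. Hspb3, a muscle-enriched small heat shock protein that entered through NAcc alone, read −1.02 (SE 0.10), as a description. On the deposited scale Dnajc12, Dnajb9 and Dnaja3 turned sign, to +0.04, +0.08 and +0.16. For Dnajb9, deposited DG means lay below those of NAcc in the control (10.92 against 11.1) and lifetime groups (11.1 against 11.22). In the early group it averaged 11.09 in DG and 10.55 in NAcc, where array 5 read 7.09 and the median was 11.32. Array 5 thus enters its turn of sign, beside the lack of centring. Hsph1, Dnajb2 and Dnajc28 overlapped between the regions on the deposited scale, so their differences rest largely on the centring. As deposited, Dnajc28 averaged 6.36, 6.34 and 6.37 in control, early and lifetime DG, against 6.33, 6.4 and 6.39 in NAcc. Dnajb2 averaged 9.66, 9.88 and 10.06, against 9.98, 9.73 and 10.07. Its early NAcc mean includes array 5 at 8.23, and the median there was 10.04. Hsph1 ran from 9.77 to 10.78 in DG and from 8.17 to 10.69 in NAcc, or from 9.99 to 10.69 without early array 5. Hspa8 was 0.31 lower in DG relative to the medians (SE 0.05, adjusted p = 1.74e-05), although its deposited values were higher in DG (14.95 to 15.21) than in NAcc (14.35 to 14.91).

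Animal 5 also moved the regional differences of the TRiC and ER genes. With it, Cct5 and Cct6a were higher and Cct3 was lower in DG, and 5 of the 8 TRiC genes did not pass. Without it, 4 were higher and 1 lower. Hspa5 differed by −0.16 (SE 0.21, adjusted p = 0.491) with animal 5 and by −0.37 (SE 0.08, adjusted p = 0.000251) without it. The Hspa1a difference was 2.78 and the Hspb1 difference −1.65 without it, close to the values with it. Of the 51 related chaperone genes tested, 14 were higher and 16 lower in DG, or 58.8%, against 74.8% of all features.

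**Figure D4:**
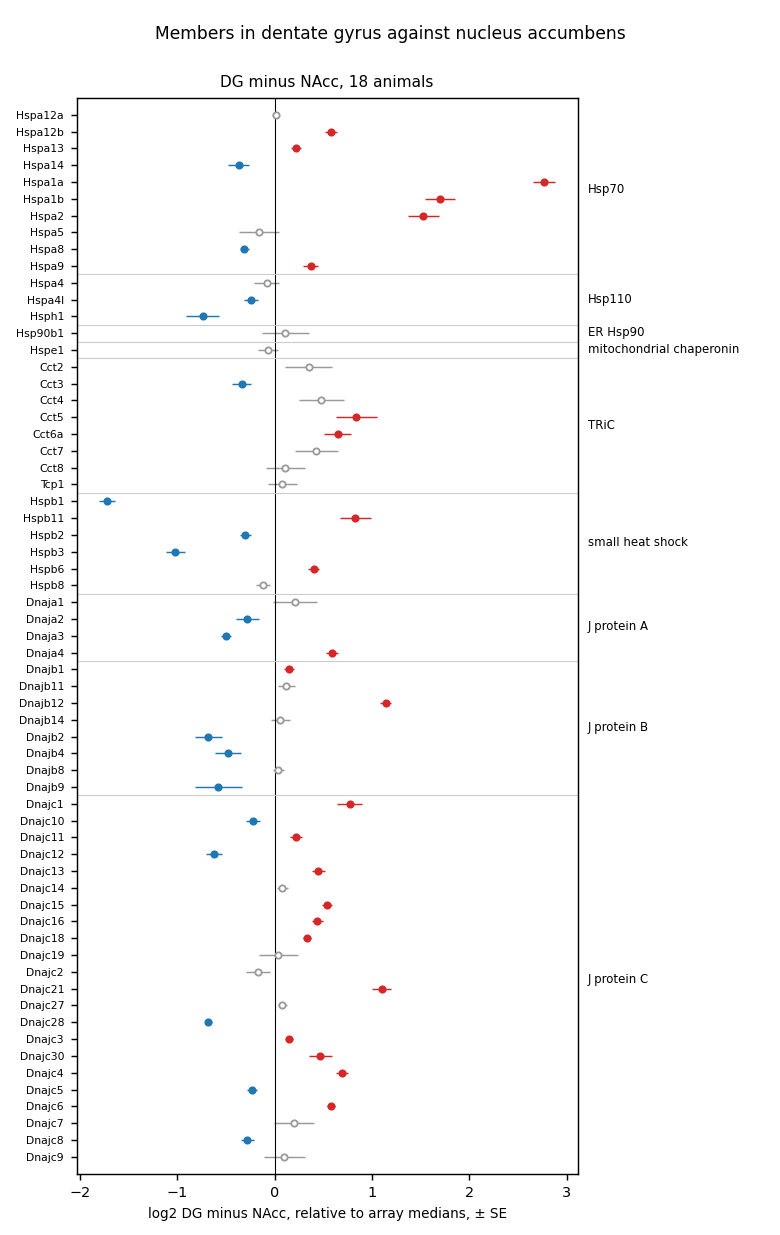
The log2 difference of DG from NAcc within 18 animals (x axis, point and SE), relative to the median of each array, for the 63 tested members by family. Filled red points were higher and filled blue points lower in DG at an adjusted p under 0.05, and Hspa1a (+2.77) and Hspb1 (−1.72) mark the ends of the range.

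Whether overexpression changed the members by unequal amounts in the 2 regions was tested on the difference of DG and NAcc within each animal. No member passed in limma for the early change, where 0% of 12268 features passed and 10 members had an unadjusted p under 0.05. The smallest p values were those of Hspb3 (−0.78, SE 0.23, adjusted p = 0.183), Hspe1 (+0.53, SE 0.16, adjusted p = 0.185) and Dnajc1 (+0.74, SE 0.23, adjusted p = 0.185). Hspb3 lay under the filter in DG. Animal 5 belongs to the early group, and without it these differences were −0.53, +0.38 and +0.61, with adjusted p of 0.113 to 0.161. The median over the members was +0.094 with it and −0.011 without it. Still no member passed, against 0.261% of features. No member passed for the lifetime change either, where 0.619% of features passed and 7 members had an unadjusted p under 0.05. Hspa1a (+0.63, SE 0.16, adjusted p = 0.1), Hspa2 (+0.86, SE 0.28, adjusted p = 0.237) and Hspa12a (−0.20, SE 0.08, adjusted p = 0.336) had the smallest p.

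The lifetime result turned on animal 5, an animal of the early group that enters through the shared variance and the adjustment over all features. For Hspa1a the SE was 0.16 with and without animal 5, and the unadjusted limma p was 0.00113 and 0.000819. Without animal 5, 3.51% of features passed, and with them Hspa1a (+0.63, SE 0.16, adjusted p = 0.0379) and Dnajc7 (+0.77, SE 0.21, adjusted p = 0.0464), 2 of the 63 members. Both were larger in the lifetime than in the control animals without overlap. On the deposited scale used for this test, the mean difference between the regions for Hspa1a was 3.96 in lifetime animals and 3.33 in controls. Its NAcc signal lay under the filter of that region, which limits how well its change there was measured.

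The spread within groups set the members' precision. The median within-group SD in DG was 0.17 for the 61 tested members and 0.17 for all features, and in NAcc it was 0.31 and 0.23, or 0.18 and 0.16 without early array 5. In DG, Dnajc19 (0.51), Hspa1b (0.46) and Hspa2 (0.41) varied most, and Dnajc28 (0.08) was among the steadiest. Across the 18 DG arrays, the deviations of Hspa1a and Hspa1b from their group means moved together, with Pearson r = 0.78 (permutation p = 0.00091) and Spearman rho = 0.76 (permutation p = 0.0014). Adjusted over 10 relations of Hspa1a with other members on the HSF1-inducible list, the constitutive Hspa8 among them, these were 0.0091 and 0.014. By group, r was 0.62 in controls, 0.91 in the early and 0.71 in the lifetime group. Without the 2 arrays farthest from the median r was 0.68. No other of the 10 relations passed after adjustment, the next being that with Dnajb1 by r (0.52, permutation p = 0.052, adjusted 0.26) and with Hspa4l by rho (0.57, permutation p = 0.023, adjusted 0.11). Since transcript and probe sequences of the 2 genes were not compared, a shared reading by the probes and a shared change cannot be told apart.

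**Figure D5:**
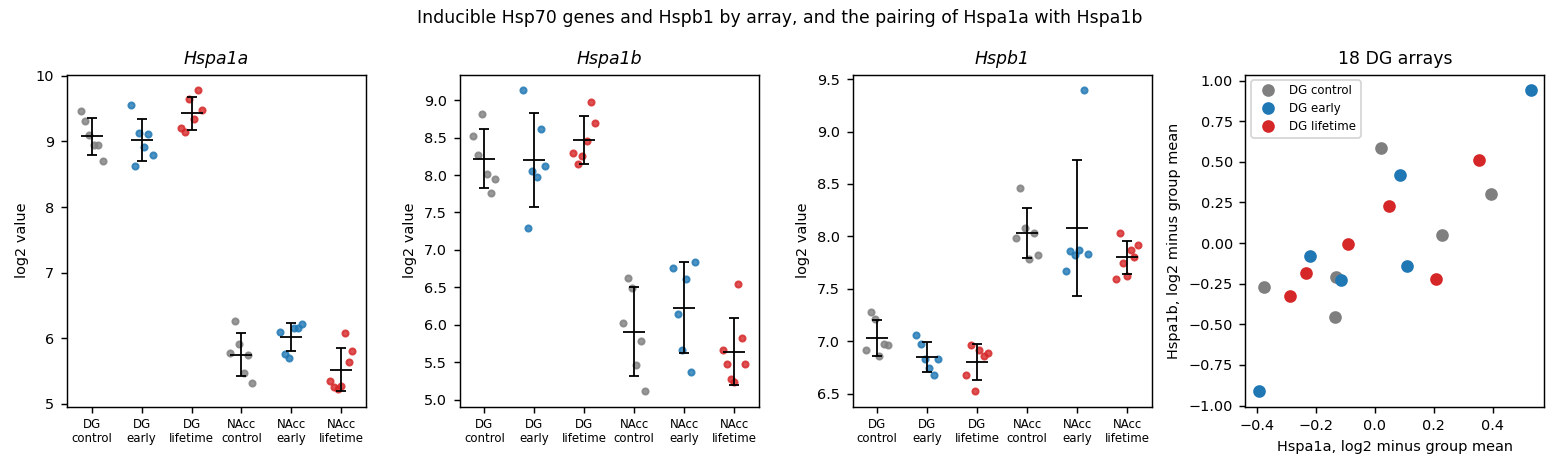
Log2 values (y axis) of Hspa1a, Hspa1b and Hspb1, chosen after their values were seen, by region and group with mean and SD, and on the right each DG array's deviation from its group mean for Hspa1a (x axis) and Hspa1b (y axis). Hspa1a and Hspa1b lie higher in DG and Hspb1 lies higher in NAcc, and the deviations of the pair rise together (r = 0.78).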

How the data were processed

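The authors deposited log2 expression values from RMA (version not given), as named by the submitters' processing notes. Each row stands for a RefSeq transcript accession, and values ran from 3.23 to 15.2. Arrays give no read depth, so their number limits the precision. Per the labels' protocols, 12 µm sections were laser-captured and the RNA went through 2 rounds of amplification. Of 24142 accessions, 20920 matched a symbol in a RefSeq table of GRCm38.p6, and rows with identical values were counted once (18835 features). Promoters came from RefSeq windows of the same build.

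Each region was fitted separately with limma 3.58.1 in R 4.3.3, with 1 variance per feature over the 3 groups, after dropping features under the 40th percentile. All tests were two-sided, with Benjamini-Hochberg adjustment over all features tested. SE is limma's standard error, and SD is taken over arrays. Regions were compared on median-centred values with the animal as a fixed block. Exact permutation tests were used for array spread and 100000 permutations within groups for correlations, in Python 3.11.15 with scipy 1.17.1.

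Arrays of the 2 regions with equal numbers in their titles were read as 1 animal, since by the series design both areas were collected per animal. Deviations of same-numbered arrays correlated with a median r of 0.135 (−0.201 to 0.463), and 3 of 18 correlated best with their own number. Nothing in the labels says that animals came from separate litters. Fits were tested on simulated data.

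Members, lists and tests were chosen with earlier results of these data known. Genes named in a comparison were those past the threshold, up to 10 each way, or else the 3 smallest p, up to 8 each way between regions, and a set of well-known members by level. The lowest, median and highest array values were given for the 3 smallest p in each comparison with calls, and for further members chosen after their values were seen. Alternatives were other filters and normalizations, the array spread as a covariate, array weights, only the compared groups, the animal as a block, and leaving out each array or animal.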

Additional observations from a re-analysis of the deposited data

Results flagged for a closer look

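Single arrays were set against their groups for 20 of the members, in 120 sets of a gene and a group, and 17 stood apart by Dixon's test at the 95% level, where chance alone flags about 1 in 20 sets. Of these, 10 came from NAcc early array 5. It was low for Dnaja4 (6.79), Dnajb14 (9.11), Dnajb4 (6.5), Dnajc19 (5.5), Dnajc7 (7.6), Dnajc8 (11.03), Hspa2 (6.06), Hspe1 (6.62) and Hsph1 (8.17), and high for Hspa12a (7.12). For Dnajc7 the other early arrays read 10.54 to 10.66.

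In the rest of NAcc, lifetime array 8 was low for Cct8 (7.05), control array 16 for Dnajb11 (5.19) and control array 18 for Dnajc21 (5.48). In DG, lifetime array 10 was low for Dnajc1 (7.85) and for Hspa2 (8.45), where the other lifetime arrays read 9.44 to 9.72 for Hspa2. DG control array 18 was high for Hspa2 (9.28) and DG control array 14 low for Hspa12a (7.45).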

How the results depend on the processing

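The counts of members called in DG moved with the settings. For early against control (7 called), 0 passed with the interquartile range as a covariate, 11 with array weights, 4 with only the compared groups and 3 with the replicate block. For lifetime against control (8 called) these were 0, 15, 5 and 2. Leaving out 1 array at a time gave 0 to 10 for the early and 3 to 15 for the lifetime comparison. Between regions, leaving out 1 animal at a time gave 40 to 49 members, against 42 with all animals. The unequal lifetime change went from 0 to 2 members without animal 5, and leaving out each animal gave 0 to 2. The other comparisons stayed at 0 members in every setting run. The counts of all features also differed by more than 1.5 times under 3 of these settings, with 1291 called for early against control and 1733 for lifetime against control in the main setting, 1 and 74 with the covariate, 2419 and 2937 with array weights, and 511 and 949 with the replicate block. With only the compared groups they were 943 and 1478. For single genes, 797 of 891 left-out fits kept direction and side of the threshold, 93 lost the call and 1 gained it. Of the other alternatives 237 kept both, 40 lost the call and 3 turned sign. These were Dnajc12 (+0.04), Dnajb9 (+0.08) and Dnaja3 (+0.16), all on deposited values between regions. The shift of the median feature was not taken off there, and for Dnajb9 the low NAcc early array 5 (7.09) enters as well. The replicate block changed no count of members outside the DG comparisons with control. The cause of the other changes was not tested. Signals under the 40th percentile limit what can be measured, and those near the top of the scale may do so.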
